A study of Mus musculus with 47 samples.

Results

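The genes described here encode the cytosolic sulfotransferases (Sult) and the UDP-glucuronosyltransferases (Ugt) of mouse liver. They were chosen by symbol alone, as every gene whose symbol begins with Sult and a digit, or with Ugt, a digit from 1 to 3 and the letter a or b, without symbols marked as pseudogenes. This gave 34 of the 20320 genes in the count table, 15 sulfotransferases and 19 glucuronosyltransferases. All 34 were among the 16650 genes with enough reads to be tested. Sult1c1, Sult2a4, Sult2a6, Sult2b1, Sult3a2, Sult6b2, Ugt2a1 and Ugt2a2 are also listed by the GENCODE annotation. The count table has no gene under these symbols, so they could not be analysed here.

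Sulfotransferases move a sulfate group from the cofactor PAPS to steroids, bile acids, phenols and amines, and glucuronosyltransferases move a sugar acid from UDP-glucuronic acid to bilirubin, steroids, fatty acids and drugs. Both reactions make the product more soluble in water and ready for bile or urine, and the liver is their main site. Several of these genes are known to differ between male and female rodents, where the pulsed or steady release of pituitary growth hormone sets much of the sex difference of liver. The Ugt1a genes are one locus in which each gene has its own first exon and all share the same last exons.

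The study sequenced polyadenylated RNA from the livers of 3 inbred strains. NZO/HlLtJ mice become obese and diabetic, CAST/EiJ is a wild-derived strain of Mus musculus castaneus, and C57BL/6J is the common laboratory strain. Females and males of each strain ate a diet with 44% fat and added fiber, high in sugar per the labels, or a control diet with 10% fat and added fiber, from 6 weeks of age until the tissue was taken at 15 weeks. All animals were labelled wild type and otherwise untreated. There were 4 libraries in each of the 12 groups of strain, sex and diet, and 3 in the group of CAST/EiJ males given 10% fat. A strain and sex over both diets therefore had 8 libraries, or 7 in CAST/EiJ males. Nothing in the labels ties every library to its own animal, and the p-values therefore speak of the spread among these libraries.

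The 47 libraries held between 21610000 and 47780000 counts each, with a median of 40010000. Levels are given in CPM, read counts scaled to a common library size with TMM factors. Differences are log2 fold changes with their standard error (SE) from edgeR's quasi-likelihood test over all libraries, averaged over diets or sexes where these are not named, and a gene is called where its p-value, adjusted by Benjamini-Hochberg over the 16650 genes, is under 0.05. The summed level of 6 hepatocyte markers ran from 73300 to 106800 CPM in CAST/EiJ females, against 40070 to 66080 CPM in CAST/EiJ males. That sum was mostly Alb, with 61470 to 91510 CPM in CAST/EiJ females against 27700 to 54470 CPM in CAST/EiJ males, and the sexes overlapped for the other 5 hepatocyte markers, such as Apoh with 1920 to 2532 CPM in females against 2075 to 2265 CPM in males. The summed level of 4 Kupffer cell markers ran from 123.3 to 255.2 CPM in CAST/EiJ females, against 78.56 to 142.1 CPM in CAST/EiJ males. The part of Alb or the Kupffer cell markers in the CAST/EiJ sex differences below was not tested, and in whole tissue fewer cells of a type and less RNA per cell cannot be told apart. The pancreatic gene Cpa1 reached 20 CPM or more in 5 libraries, and the numbers of members called without them are given with each comparison. The sample identifiers fall into 3 runs of consecutive numbers whose meaning the labels do not state. Within each run, every one of the 27 members called for sex in CAST/EiJ kept its direction, and 22, 22 and 23 of the 23 called in C57BL/6J did. In NZO/HlLtJ only run 1 held both diets of both sexes, and there all 21 members called for sex and both members called for diet kept their direction. The calls came from the same libraries, so these directions are not a separate check of them. Run 2 of NZO/HlLtJ held only females on 10% fat and males on 44% fat, and run 3 only the reverse. In those libraries run and diet within a sex cannot be told apart. With the run as covariate, 1 member was called for diet in NZO/HlLtJ females, 1 in NZO/HlLtJ males and 0 for sex by diet.

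One library stood apart. C57BL/6J female 44% fat replicate 1 had 0.385 CPM of Sult2a1, 0 CPM of Sult3a1 and 39.3 CPM of Ugt1a5. The other 7 C57BL/6J females had 23.5 to 173 CPM of Sult2a1, 15.8 to 81.7 CPM of Sult3a1 and 126 to 223 CPM of Ugt1a5. The same library had the lowest summed level of 5 pericentral markers, 2311 CPM, and 442 CPM of 4 pancreatic acinar genes. Its label was kept. Without it, 22 members were called for sex in C57BL/6J, 22 for NZO/HlLtJ over C57BL/6J and 29 for CAST/EiJ over C57BL/6J, against 23, 21 and 26 with it.

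The sexes differed in most of these genes in all 3 strains. In NZO/HlLtJ, 21 of the 34 members were called for sex, where 17.2% of all tested genes were. In CAST/EiJ, 27 were called against 30.3% of all genes, and in C57BL/6J 23 were called against 16.8%. Over both families, 13 members were higher and 8 lower in females of NZO/HlLtJ (9.31% and 7.94% of all genes), 14 higher and 13 lower in CAST/EiJ (14.2% and 16.1%), and 13 higher and 10 lower in C57BL/6J (8.7% and 8.1%). The sulfotransferases called were mostly higher in females, 10 of 11 in NZO/HlLtJ, 9 of 11 in CAST/EiJ and 10 of 11 in C57BL/6J. That count has a limit, because every gene of the table is above 0 in at least 24 of the 47 libraries, of which 24 are female and 23 male, so a gene read in females alone can be in the table and one read in males alone cannot. Sult2a3 and Sult2a5 were above 0 in 24 female libraries and 1 male library each, Sult2a2 in 24 and 5, and Sult2a1 in 24 and 12. Without these 4 genes, left out after their values were seen, 6 of 7, 5 of 7 and 6 of 7 called sulfotransferases were higher in females of NZO/HlLtJ, CAST/EiJ and C57BL/6J. The glucuronosyltransferases called were mostly lower in females, 7 of 10 in NZO/HlLtJ, 11 of 16 in CAST/EiJ and 9 of 12 in C57BL/6J. The median log2 fold change of female over male over all 34 members was 0.04 in NZO/HlLtJ, 0.12 in CAST/EiJ and 0.21 in C57BL/6J, against 0.015, 0.006 and 0.012 over all tested genes. Setting members at 0 in males to their lower bound left these medians as they were, and without Sult2a7 and Sult4a1, which had too few counts or none in CAST/EiJ for a fold, the CAST/EiJ median was 0.24 over 32 members. Without the 5 libraries that hold Cpa1, 22, 27 and 21 members were called in NZO/HlLtJ, CAST/EiJ and C57BL/6J.

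Calls were also compared over the strains. The share of all tested genes with each such pattern was not counted, so these member counts have no background to be read against. In all 3 strains, 8 members were higher in females, namely Sult1a1, Sult1c2, Sult2a1, Sult2a2, Sult2a3, Sult2a5, Ugt1a1 and Ugt2b37. The limit given above for Sult2a1, Sult2a2, Sult2a3 and Sult2a5 holds here too. Another 6 were lower in females of all 3 strains, namely Sult2a8, Ugt2b1, Ugt2b35, Ugt2b36, Ugt2b38 and Ugt2b5. Sult6b1 was the 1 member called in no strain. In CAST/EiJ alone, 7 members were called, namely Sult1b1, Sult5a1, Ugt1a2, Ugt1a8, Ugt2a3, Ugt2b34 and Ugt3a2. Of all tested genes, 30.3% were called for sex in CAST/EiJ, against 17.2% in NZO/HlLtJ and 16.8% in C57BL/6J. The joint test below also called all 7, but it used the same libraries and fit, so it adds no separate support. Ugt1a6b, Ugt1a9 and Ugt3a1 were called in opposite directions in different strains. For Ugt3a1 this was 0.49 in CAST/EiJ (adjusted p = 1.2e-06) and -0.20 in C57BL/6J (adjusted p = 0.0471), and the C57BL/6J call was lost in 10 of 16 refits that left out 1 library, with adjusted p up to 0.1501. The joint test that the sex effect differed among the 3 strains called 22 of the 34 members, against 13.6% of all tested genes. Set against C57BL/6J, the sex effect differed in CAST/EiJ for 18 members, where 10.5% of all genes were called, and in NZO/HlLtJ for 2 members, where 0.571% were. The plot of sex effects gives the size of each.

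**Figure D1:**
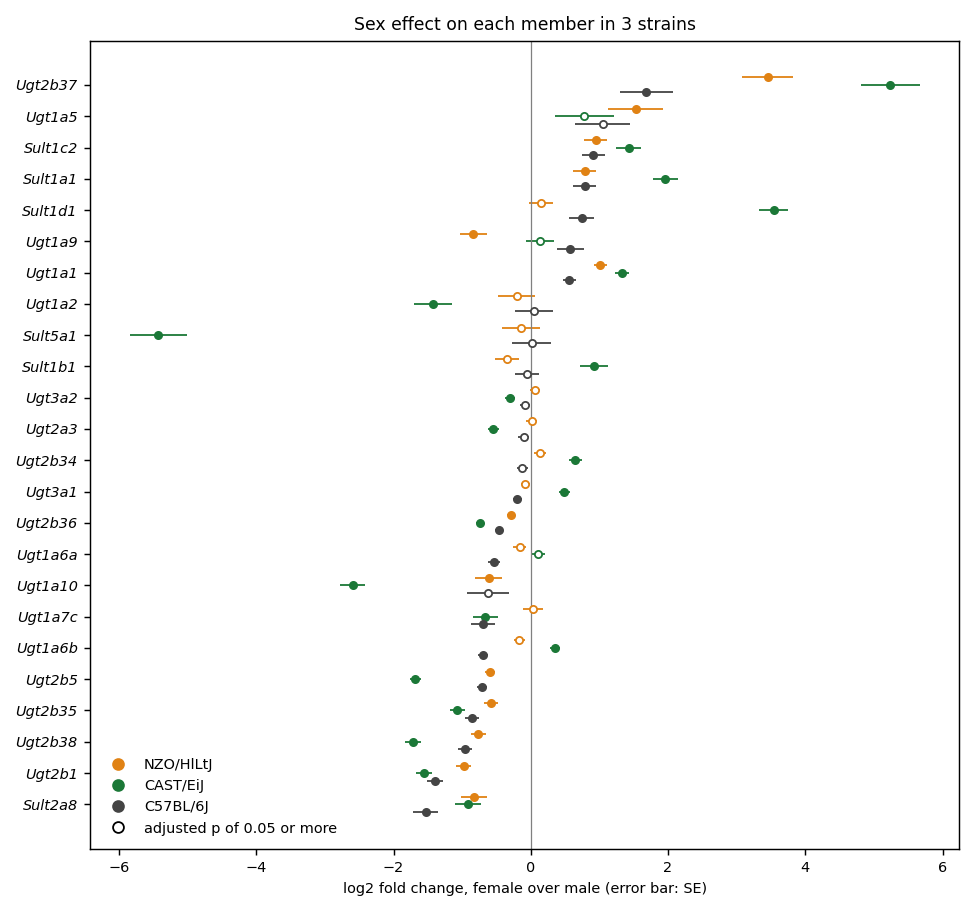
Log2 fold change of female over male livers for 24 of the 34 members in NZO/HlLtJ, CAST/EiJ and C57BL/6J, averaged over diets, with error bars of 1 SE from edgeR's quasi-likelihood fit. Open points had an adjusted p of 0.05 or more, and 10 members with few or no counts in a sex are left out. The CAST/EiJ points lie farthest from 0 for Ugt2b37 (5.24), Sult1d1 (3.54), Ugt1a10 (-2.60) and Sult5a1 (-5.43).

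The hydroxysteroid sulfotransferases of the Sult2a cluster on chromosome 7 showed wide sex differences. These enzymes sulfate bile acids and steroids such as dehydroepiandrosterone. Sult2a1 (chr7:13796246-13837409 on the reverse strand, in GRCm38) had a lowest, median and highest level of 110, 244 and 323 CPM in NZO/HlLtJ females, against 0, 0.0126 and 0.135 CPM in NZO/HlLtJ males. CAST/EiJ females had 451, 728 and 1247 CPM of Sult2a1, against 0, 0.0489 and 0.0960 CPM in CAST/EiJ males. C57BL/6J females had 0.385, 54.7 and 173 CPM, against 0, 0.0123 and 0.0513 CPM in C57BL/6J males. Every female library lay above every male library of its strain, the C57BL/6J female that stood apart included. Males of a strain held 7 to 10 Sult2a1 counts in all. The ratio of female to male counts per library size was 8305 in NZO/HlLtJ (95% counting interval 4215 to 19240), 21390 in CAST/EiJ (11630 to 44620) and 3272 in C57BL/6J (1588 to 8138). These intervals cover counting error only. The adjusted p of edgeR's quasi-likelihood test was 2.83e-14, 1.08e-14 and 5.05e-13 in the same strains. The fitted log2 fold change of Sult2a1 moved with single male libraries, and was 14.18 without NZO/HlLtJ male 10% fat replicate 1 (13.02 with it) and 12.69 without C57BL/6J male 44% fat replicate 1 (11.56 with it). Without the C57BL/6J female that stood apart it was 11.77. Among females, Sult2a1 was 1.77 higher on the log2 scale in NZO/HlLtJ than in C57BL/6J (adjusted p = 0.00144) and 3.58 higher in CAST/EiJ than in C57BL/6J (adjusted p = 3.3e-08). Without the C57BL/6J female that stood apart these differences were 1.55 and 3.36.

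Sult2a2, Sult2a3 and Sult2a5, described here after their values were seen, had the same female bias at lower levels. Sult2a2 (chr7:13733505-13779636, forward) had 61.0, 84.3 and 125 CPM in NZO/HlLtJ females and 5.37, 72.4 and 156 CPM in C57BL/6J females, and no male library exceeded 0.0746 CPM. In CAST/EiJ females Sult2a2 had 0.333, 0.531 and 1.06 CPM, and all 7 CAST/EiJ male libraries had 0. The CAST/EiJ females thus lay below all females of the other strains, a log2 difference of -7.12 ± 0.50 from C57BL/6J females (SE, adjusted p = 3.6e-12), and -7.32 without the C57BL/6J female that stood apart. Within CAST/EiJ, Sult2a2 was still at least 49.81-fold higher in females than in males, with a floor of 3 counts over the male group. Sult2a3 (chr7:14067452-14123044, reverse) had medians of 16.6, 10.9 and 3.88 CPM in females of NZO/HlLtJ, CAST/EiJ and C57BL/6J. Males had 2 counts of Sult2a3 in NZO/HlLtJ and none in CAST/EiJ and C57BL/6J, where females were at least 2180-fold and 527.6-fold higher. The CAST/EiJ females ran from 3.20 to 104 CPM, and without the highest, 10% fat replicate 4, the bound was 1123-fold and the fitted log2 fold change 11.99 (12.63 with it). Sult2a5 (chr7:13623967-13670807, forward) had female medians of 17.7, 3.49 and 1.13 CPM in the same order. Its males had 2 counts in NZO/HlLtJ and none in CAST/EiJ and C57BL/6J, where females were at least 442.3-fold and 165.1-fold higher. Without C57BL/6J female 10% fat replicate 2, which had 4.81 CPM of Sult2a5, the C57BL/6J bound was 118.4-fold and the fitted log2 fold change 8.29 (8.92 with it). Of the 100-base windows in its exons, Sult2a1 shared 11.4% with other genes, Sult2a2 34.6% and Sult2a5 16.6%, so that reads could be split between copies. Sult2a3 shared none. Sult2a1 and Sult2a2 had 105 windows in common, which was 16.4% of those of Sult2a2. The part of this in the strain differences of Sult2a1 and Sult2a2 was not tested.

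The promoters of Sult2a3 and Sult2a5, both near 0 in males, are shown because both carry GTTAAT, the half-site of the liver factor HNF1, at matching places. They are RefSeq sequences of build GRCm38.p6, 250 bases before to 50 bases after the annotated start, at chr7:14122999-14123298 on the reverse strand and chr7:13623717-13624016 on the forward strand. Capitals mark GTTAAT or its reverse complement ATTAAC.
Sult2a3: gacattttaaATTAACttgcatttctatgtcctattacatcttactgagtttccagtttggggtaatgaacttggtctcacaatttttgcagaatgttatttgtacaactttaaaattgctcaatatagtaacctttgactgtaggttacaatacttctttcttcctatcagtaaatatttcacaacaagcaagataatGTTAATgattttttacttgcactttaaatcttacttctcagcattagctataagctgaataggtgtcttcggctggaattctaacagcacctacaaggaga
Sult2a5: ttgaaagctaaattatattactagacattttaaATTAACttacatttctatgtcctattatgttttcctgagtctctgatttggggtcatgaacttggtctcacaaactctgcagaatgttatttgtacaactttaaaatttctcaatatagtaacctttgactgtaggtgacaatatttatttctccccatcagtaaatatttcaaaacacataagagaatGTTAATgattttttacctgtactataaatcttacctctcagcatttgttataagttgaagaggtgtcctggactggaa
Each promoter held 2 matches, and 242 of the 277 aligned bases were identical (87.4%). The promoters of Ugt1a10 and Ugt2a3 also held 2 matches, and both genes were called lower in females of CAST/EiJ. GTTAAT was found on either strand in 10 of the 30 promoters that matched 28 of the members, and in 7.1% of all 32851 promoters of the same length. The full HNF1 palindrome was in 0 of the 30 and in 0.00913% of all. TTCNNNGAA, the site of STAT factors, was in 2 of the 30 and 8.3% of all, and AGGTCA, a nuclear receptor half-site, in 10 of the 30 and 16.3% of all. A match describes the letters in this window and is not a measured site.

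Of Sult2a7 and Sult2a8, the neighbours at the far end of the cluster, only Sult2a8 ran against this female bias. Sult2a7 ran the same way in NZO/HlLtJ and C57BL/6J, but all males of these strains were above 0. Sult2a8, a mouse enzyme that sulfates bile acids, was lower in females. It had 243, 310 and 519 CPM in NZO/HlLtJ females, against 452, 592 and 786 CPM in NZO/HlLtJ males (log2 fold change -0.83 ± 0.18, adjusted p = 0.00113). It had 307, 397 and 506 CPM in CAST/EiJ females, against 669, 759 and 827 CPM in CAST/EiJ males (-0.92 ± 0.19, adjusted p = 2.35e-04). It had 81.5, 225 and 345 CPM in C57BL/6J females, against 422, 611 and 820 CPM in C57BL/6J males (-1.53 ± 0.19, adjusted p = 5.03e-08). The lowest of these females was the library that stood apart, and the other 7 had 132.2 to 344.8 CPM of Sult2a8. The sexes did not overlap in CAST/EiJ or C57BL/6J and overlapped in NZO/HlLtJ. Sult2a7 had 2.11, 4.39 and 11.3 CPM in NZO/HlLtJ females, against 0.427, 0.809 and 1.14 CPM in NZO/HlLtJ males, with no overlap (2.86 ± 0.40, adjusted p = 2.75e-06). In CAST/EiJ, Sult2a7 had 1 count in all females and 1 in all males, which gives no fold. Its C57BL/6J sex difference of 1.63 ± 0.46 (adjusted p = 0.0117) lost its call without C57BL/6J female 44% fat replicate 3 (adjusted p = 0.05125).

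**Figure D2:**
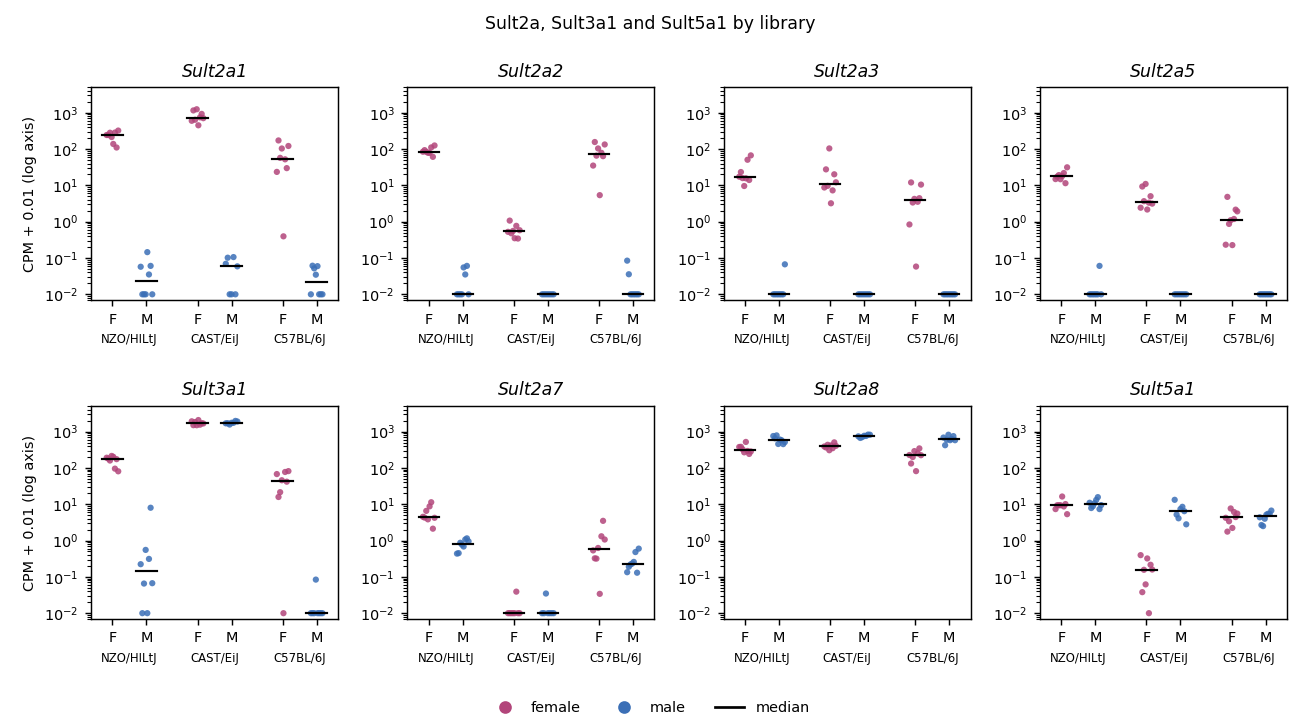
Level of 8 sulfotransferase genes in every library, as CPM plus 0.01 on a log axis, by strain and sex with both diets together; bars are medians. Sult2a1, Sult2a2, Sult2a3 and Sult2a5 lie at or near 0 in all males, Sult3a1 is high in both sexes of CAST/EiJ, and Sult5a1 is low in CAST/EiJ females.

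Sult3a1 (chr10:33863935-33879475, forward), a sulfotransferase that acts on amines, was high in females and near 0 in most males of C57BL/6J and NZO/HlLtJ, and high in both sexes of CAST/EiJ. It had 80.6, 178 and 214 CPM in NZO/HlLtJ females, against 0, 0.135 and 8.0 CPM in NZO/HlLtJ males. It had 1498, 1689 and 2081 CPM in CAST/EiJ females, against 1567, 1746 and 1970 CPM in CAST/EiJ males. It had 0, 43.7 and 81.7 CPM in C57BL/6J females, against 0, 0 and 0.0741 CPM in C57BL/6J males. All 15 CAST/EiJ libraries lay above every library of the other strains. The C57BL/6J female at 0 is the library that stood apart, and it alone overlapped the males. The C57BL/6J males held 3 Sult3a1 counts, all in 10% fat replicate 4, which gives a female to male ratio of 4972 (95% counting interval 1701 to 24110, adjusted p = 3.82e-09). The fitted log2 fold change was 12.38, 12.59 without the female that stood apart and 13.75 without that male. In NZO/HlLtJ the log2 fold change was 7.90 ± 0.82 (adjusted p = 6.81e-09), and 9.87 without NZO/HlLtJ male 44% fat replicate 3, the male with 8.0 CPM. In CAST/EiJ it was -0.02 ± 0.58 (adjusted p = 0.992, 95% interval -1.21 to 1.17). That SE and interval rest on a spread shared by all 12 groups, those near 0 included, and not on the CAST/EiJ libraries alone. The CAST/EiJ libraries had an SD of 210.5 CPM in females and 134.2 CPM in males. The sex effect differed among strains (adjusted p = 6.9e-08), with a difference of -12.40 between CAST/EiJ and C57BL/6J (adjusted p = 2.8e-07), which was -12.60 without the female that stood apart and -13.77 without the male that held the 3 counts.

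Between strains, the female livers compare most directly for Sult3a1, since C57BL/6J males had almost no counts. CAST/EiJ females were 5.31 higher than C57BL/6J females on the log2 scale (adjusted p = 3.8e-08), and NZO/HlLtJ females were 1.88 higher (adjusted p = 0.0112). Without the C57BL/6J female that stood apart these were 5.09 and 1.66. Averaged over the sexes, the CAST/EiJ over C57BL/6J value of 11.51 ± 0.72 became 12.19 without C57BL/6J male 10% fat replicate 4, which held all 3 counts of its group. Per kilobase of exon, Sult3a1 was the highest of the 34 members in CAST/EiJ, with a median of 1461 CPM per kilobase in females and 1510 in males. Its exons shared none of their 100-base windows with another annotated gene. Yet the count table has no gene named Sult3a2, its close copy, so reads of a diverged copy cannot be told apart from Sult3a1. No strain's own genome was used here to check this.

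Among the Sult1 genes, Sult1a1 and Sult1c2 were higher in females of all 3 strains. Sult1a1 (chr7:126672865-126676432, reverse), the main phenol sulfotransferase, had 169, 243 and 359 CPM in NZO/HlLtJ females, against 91.5, 159 and 247 CPM in NZO/HlLtJ males. It had 194, 225 and 397 CPM in CAST/EiJ females, against 47.8, 54.6 and 101 CPM in CAST/EiJ males. It had 236, 302 and 398 CPM in C57BL/6J females, against 134, 181 and 245 CPM in C57BL/6J males. The sexes were fully separate in CAST/EiJ and overlapped in the other strains. Sult1a1 differed between females and males by a log2 fold change of 0.79 ± 0.17 in NZO/HlLtJ (adjusted p = 6.88e-04), 1.96 ± 0.18 in CAST/EiJ (adjusted p = 4.07e-11) and 0.79 ± 0.17 in C57BL/6J (adjusted p = 6.67e-04). The difference among strains passed the joint test (adjusted p = 0.000397). Sult1c2, chosen after its values were seen, was higher in females by 0.94, 1.43 and 0.91 in the same strains.

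Sult1d1 (chr5:87554645-87569027, reverse), which in mice sulfates dopamine and other catecholamines, had the smallest p of all members in the test of sex by strain (adjusted p = 6.29e-12). It had 96.5, 142 and 170 CPM in CAST/EiJ females, against 8.10, 9.95 and 21.6 CPM in CAST/EiJ males. It had 74.3, 91.8 and 111 CPM in NZO/HlLtJ females, against 45.6, 76.8 and 158 CPM in NZO/HlLtJ males. It had 98.5, 116 and 174 CPM in C57BL/6J females, against 57.1, 78.1 and 94.8 CPM in C57BL/6J males. CAST/EiJ males were low, below every other library, and the NZO/HlLtJ sexes overlapped. The log2 fold change was 0.14 ± 0.18 in NZO/HlLtJ (adjusted p = 0.641), 3.54 ± 0.21 in CAST/EiJ (adjusted p = 3.50e-16) and 0.74 ± 0.18 in C57BL/6J (adjusted p = 0.00265).

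Sult1b1 (chr5:87513339-87538195, reverse), which sulfates thyroid hormones and phenols, lies beside Sult1d1 and differed mainly by strain. It had 23.96, 34.2 and 39.9 CPM in NZO/HlLtJ females and 25.8, 44.6 and 54.0 CPM in NZO/HlLtJ males. It had 3.96, 4.51 and 6.87 CPM in CAST/EiJ females and 1.62, 2.55 and 3.81 CPM in CAST/EiJ males. It had 8.11, 11.8 and 20.2 CPM in C57BL/6J females and 6.06, 14.3 and 20.4 CPM in C57BL/6J males. NZO/HlLtJ libraries were highest and CAST/EiJ lowest, with 1 C57BL/6J male inside the CAST/EiJ female range. The log2 difference was 1.47 ± 0.12 for NZO/HlLtJ over C57BL/6J (adjusted p = 6.28e-13), -1.91 ± 0.14 for CAST/EiJ over C57BL/6J (adjusted p = 1.91e-15) and 3.39 ± 0.14 for NZO/HlLtJ over CAST/EiJ (adjusted p = 1.30e-22).

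Sult5a1 (chr8:123142847-123158315, reverse) was low in CAST/EiJ females. It had 0, 0.148 and 0.386 CPM in CAST/EiJ females, against 2.79, 6.43 and 13.2 CPM in CAST/EiJ males (log2 fold change -5.43 ± 0.41, adjusted p = 3.22e-13). It had 5.31, 9.35 and 16.3 CPM in NZO/HlLtJ females, against 7.34, 10.1 and 15.7 CPM in NZO/HlLtJ males. It had 1.75, 4.32 and 7.64 CPM in C57BL/6J females, against 2.49, 4.74 and 6.68 CPM in C57BL/6J males. The CAST/EiJ females lay below every other library, and the sexes overlapped in both other strains. There the difference was -0.14 ± 0.28 in NZO/HlLtJ (adjusted p = 0.783) and 0.01 ± 0.28 in C57BL/6J (adjusted p = 0.990), and the sex effect differed among strains (adjusted p = 2.65e-10). Sult4a1, known from brain, was at 0 in all 15 CAST/EiJ libraries and reached at most 0.9495 CPM elsewhere. Sult6b1 stayed at or below 0.469 CPM in all libraries.

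The Ugt2b genes of chromosome 5, whose enzymes conjugate steroids, bile acids and many drugs, were mostly lower in females. Ugt2b5 (chr5:87124960-87140318, reverse) had the smallest p for sex over the 3 strains. It had 270, 338 and 349 CPM in NZO/HlLtJ females, against 460, 502 and 515 CPM in NZO/HlLtJ males. It had 177, 206 and 239 CPM in CAST/EiJ females, against 581, 658 and 798 CPM in CAST/EiJ males. It had 393, 472 and 589 CPM in C57BL/6J females, against 629, 789 and 931 CPM in C57BL/6J males. Females and males did not overlap in any strain. Female over male, the log2 fold change of Ugt2b5 was -0.59 ± 0.07 in NZO/HlLtJ (adjusted p = 5.77e-08), -1.68 ± 0.08 in CAST/EiJ (adjusted p = 9.20e-21) and -0.72 ± 0.07 in C57BL/6J (adjusted p = 4.06e-10), and it differed among strains (adjusted p = 1.60e-10). Per kilobase of exon, Ugt2b5 was the highest member in males of NZO/HlLtJ (270.0 CPM per kilobase) and in both sexes of C57BL/6J (254.1 in females and 424.7 in males).

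Ugt2b1 (chr5:86916638-86926530, reverse) had 280, 349 and 429 CPM in NZO/HlLtJ females, against 514, 688 and 817 CPM in NZO/HlLtJ males. It had 415, 583 and 849 CPM in CAST/EiJ females, against 1574, 1800 and 2099 CPM in CAST/EiJ males. It had 142, 162 and 228 CPM in C57BL/6J females, against 336, 414 and 623 CPM in C57BL/6J males. The sexes did not overlap in any strain, and CAST/EiJ males were the highest. For Ugt2b1 the log2 fold change was -0.98 ± 0.11 in NZO/HlLtJ (adjusted p = 1.07e-08), -1.56 ± 0.12 in CAST/EiJ (adjusted p = 5.09e-14) and -1.39 ± 0.11 in C57BL/6J (adjusted p = 9.66e-13). Ugt2b1 was also 1.96 ± 0.08 higher in CAST/EiJ than in C57BL/6J (adjusted p = 1.48e-23). Ugt2b36 was lower in females by smaller amounts, with -0.29, -0.74 and -0.46 in NZO/HlLtJ, CAST/EiJ and C57BL/6J. Ugt2b34 went the other way in CAST/EiJ, with 275, 397 and 430 CPM in females against 170, 228 and 329 CPM in males (0.65 ± 0.09, adjusted p = 3.37e-07).

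Ugt2b37 and Ugt2b38, of the same cluster, had opposite sex bias. Ugt2b37 (chr5:87240493-87254804, reverse), chosen after its values were seen, had 27.0, 38.0 and 55.4 CPM in NZO/HlLtJ females, against 0.990, 3.08 and 8.84 CPM in NZO/HlLtJ males. It had 67.1, 122 and 214 CPM in CAST/EiJ females, against 1.22, 3.06 and 6.66 CPM in CAST/EiJ males. It had 2.15, 4.54 and 10.4 CPM in C57BL/6J females, against 0.586, 1.37 and 3.75 CPM in C57BL/6J males. Only in C57BL/6J did the sexes overlap. The log2 fold change of Ugt2b37 was 3.45 ± 0.37 in NZO/HlLtJ (adjusted p = 6.77e-09), 5.24 ± 0.43 in CAST/EiJ (adjusted p = 3.94e-12) and 1.69 ± 0.39 in C57BL/6J (adjusted p = 0.00185). The C57BL/6J call was lost without the 5 libraries that hold Cpa1 (1.25, adjusted p = 0.0554).

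Ugt2b38 (chr5:87409942-87424203, reverse) had 26.4, 40.8 and 45.5 CPM in NZO/HlLtJ females, against 57.1, 67.6 and 80.6 CPM in NZO/HlLtJ males. It had 14.1, 19.97 and 27.1 CPM in CAST/EiJ females, against 52.7, 69.1 and 76.0 CPM in CAST/EiJ males. It had 48.0, 54.0 and 65.1 CPM in C57BL/6J females, against 76.3, 107 and 137 CPM in C57BL/6J males. The sexes were separate in all 3 strains, with females low. Ugt2b38 had log2 fold changes of -0.76 ± 0.11 in NZO/HlLtJ (adjusted p = 1.09e-06), -1.72 ± 0.11 in CAST/EiJ (adjusted p = 1.82e-15) and -0.96 ± 0.11 in C57BL/6J (adjusted p = 6.03e-09). Ugt2b38 shared 24.2% of its 100-base windows with Ugt2b5, which moved the same way, and 1.06% with Ugt2b37.

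The promoters of this pair are shown because they are almost the same although the genes were biased to opposite sexes. They are RefSeq sequences of build GRCm38.p6, at chr5:87254739-87255038 for Ugt2b37 and chr5:87424154-87424453 for Ugt2b38, both on the reverse strand. Capitals mark the 12 aligned positions at which the bases differ.
Ugt2b37: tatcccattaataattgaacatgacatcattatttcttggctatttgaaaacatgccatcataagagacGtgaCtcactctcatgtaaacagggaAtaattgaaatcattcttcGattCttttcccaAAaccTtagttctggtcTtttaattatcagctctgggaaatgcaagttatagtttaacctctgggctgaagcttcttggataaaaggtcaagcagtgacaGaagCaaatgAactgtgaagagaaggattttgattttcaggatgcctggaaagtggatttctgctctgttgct
Ugt2b38: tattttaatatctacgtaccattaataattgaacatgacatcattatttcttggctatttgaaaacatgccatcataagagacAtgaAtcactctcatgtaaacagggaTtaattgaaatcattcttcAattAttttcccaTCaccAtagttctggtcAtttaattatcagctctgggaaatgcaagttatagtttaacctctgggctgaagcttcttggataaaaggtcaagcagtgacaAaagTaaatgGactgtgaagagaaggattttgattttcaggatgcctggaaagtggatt
Of 286 aligned bases, 274 were identical, and a further 6 bases lay in inner gaps, an identity of 93.8% with gaps counted. The promoter of Ugt2b5 was 87.0% identical to that of Ugt2b38 and 82.8% identical to that of Ugt2b37. Which of the differing bases, if any, bears on the sex bias was not tested.

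**Figure D3:**
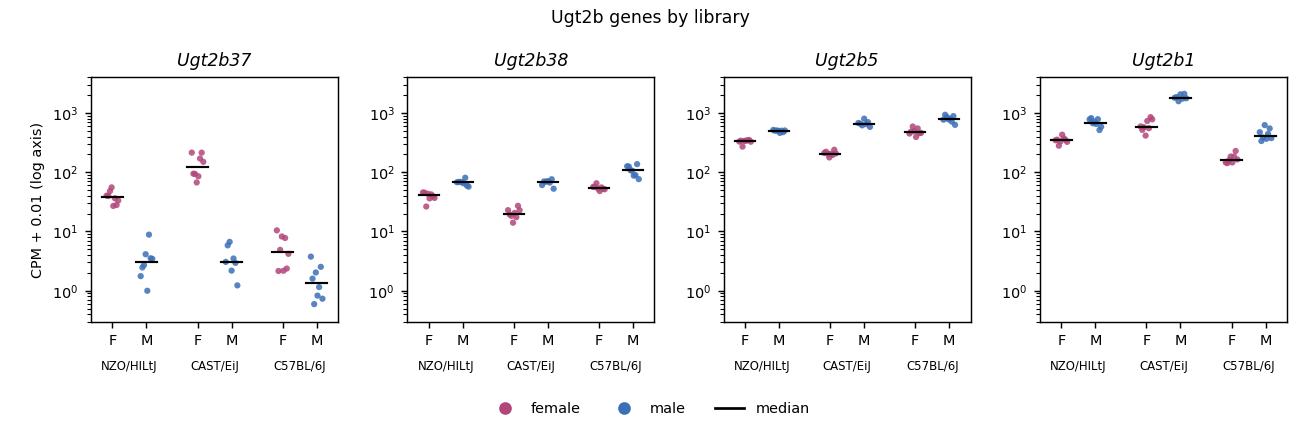
Level of Ugt2b37, Ugt2b38, Ugt2b5 and Ugt2b1 in every library, in CPM by strain and sex with both diets together; bars are medians. Females lie above males for Ugt2b37, with a median of 122 CPM in CAST/EiJ females and 3.06 CPM in CAST/EiJ males, and below males for the other genes in all 3 strains.

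The Ugt1a locus (the genes span chr1:88055388-88220002, forward) differed in make-up between sexes and strains. Each Ugt1a gene shared 50.4% to 70.9% of its 100-base windows with others of the locus through the common last exons, so the split of reads among them rests on the first exons and on the authors' counting. The summed level of the 9 Ugt1a genes had a median of 703.1 CPM in NZO/HlLtJ females and 663.9 CPM in NZO/HlLtJ males, 829.4 and 574.4 CPM in CAST/EiJ females and males, and 844.6 and 637.8 CPM in C57BL/6J females and males. Ugt1a1 (chr1:88211959-88218997), the enzyme that conjugates bilirubin, took a median of 41.9% of that sum in NZO/HlLtJ females and 19.7% in NZO/HlLtJ males. It took 69.7% in CAST/EiJ females and 38.4% in CAST/EiJ males, and 57.4% in C57BL/6J females and 50.9% in C57BL/6J males. The shares are of reads and are not corrected for length.

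**Figure D4:**
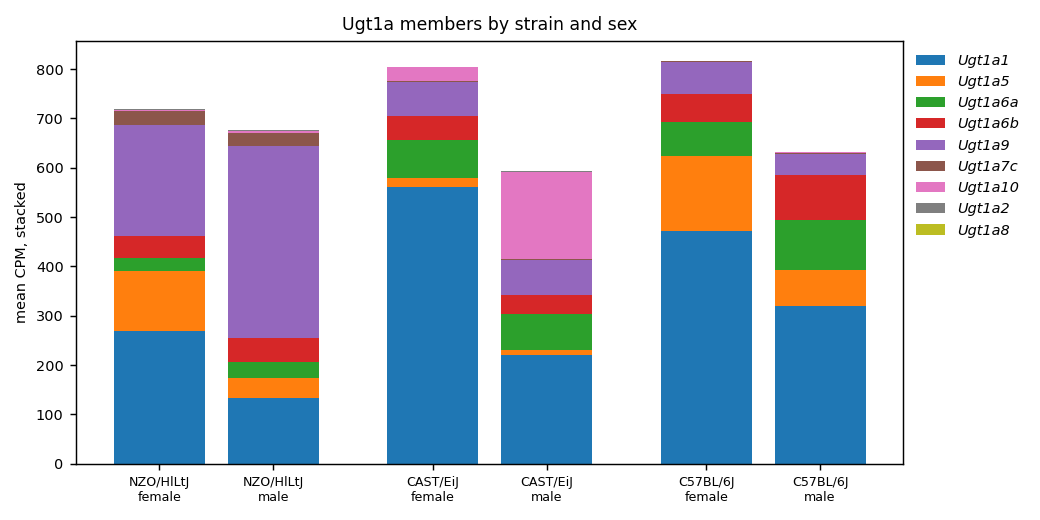
Mean CPM of the 9 Ugt1a genes, stacked, for each strain and sex over both diets. Ugt1a1 is the largest block in females of all 3 strains, Ugt1a9 is the largest in NZO/HlLtJ males, with a median share of 57.5%, and Ugt1a10 is a large block in CAST/EiJ males, with a median share of 29.8%.

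Ugt1a1 was higher in females of every strain. It had 181, 276 and 324 CPM in NZO/HlLtJ females, against 110, 131 and 158 CPM in NZO/HlLtJ males (log2 fold change 1.01 ± 0.10, adjusted p = 6.78e-11). It had 428, 574 and 644 CPM in CAST/EiJ females, against 179, 219 and 277 CPM in CAST/EiJ males (1.34 ± 0.10, adjusted p = 6.41e-14). It had 350, 469 and 565 CPM in C57BL/6J females, against 286, 314 and 359 CPM in C57BL/6J males (0.56 ± 0.09, adjusted p = 2.16e-05). The sexes were separate in NZO/HlLtJ and CAST/EiJ and overlapped narrowly in C57BL/6J. Averaged over sexes, Ugt1a1 was lower in NZO/HlLtJ than in C57BL/6J by a log2 difference of -1.04 ± 0.07 (adjusted p = 9.28e-17).

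Ugt1a10 (chr1:88055388-88219004) and Ugt1a7c (chr1:88095062-88220002) each marked a strain. Ugt1a10 had 24.8, 28.7 and 34.6 CPM in CAST/EiJ females, against 133, 171 and 210 CPM in CAST/EiJ males (log2 fold change -2.60 ± 0.18, adjusted p = 3.18e-14). It stayed between 1.65 and 6.13 CPM in NZO/HlLtJ and between 0.0880 and 0.845 CPM in C57BL/6J. All CAST/EiJ libraries were high, and the 3 strains did not overlap. The CAST/EiJ over C57BL/6J difference of Ugt1a10 was 7.27 ± 0.17 (adjusted p = 1.67e-30) and the NZO/HlLtJ over C57BL/6J difference 2.77 ± 0.17 (adjusted p = 1.59e-16). Ugt1a7c had 25.5, 27.4 and 30.4 CPM in NZO/HlLtJ females and 23.0, 26.1 and 32.8 CPM in NZO/HlLtJ males. It stayed between 1.34 and 3.55 CPM in CAST/EiJ and between 1.13 and 4.54 CPM in C57BL/6J, below every NZO/HlLtJ library. Ugt1a7c was 3.79 ± 0.12 higher in NZO/HlLtJ than in C57BL/6J (adjusted p = 9.76e-27) and 3.72 ± 0.13 higher than in CAST/EiJ (adjusted p = 2.29e-26).

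Ugt1a9 and Ugt1a6b, enzymes for phenols, were called for sex in opposite directions in different strains. Ugt1a9 (chr1:88070800-88218997), chosen after its values were seen, had 137, 200 and 317 CPM in NZO/HlLtJ females, against 316, 391 and 452 CPM in NZO/HlLtJ males (log2 fold change -0.84 ± 0.20, adjusted p = 0.00212). It had 39.6, 55.4 and 122 CPM in C57BL/6J females, against 27.9, 33.7 and 102 CPM in C57BL/6J males (0.57 ± 0.20, adjusted p = 0.0412). The NZO/HlLtJ sexes overlapped narrowly and the C57BL/6J sexes widely, and the C57BL/6J call was lost in 9 of 16 refits that left out 1 library (adjusted p up to 0.153). Ugt1a6b (chr1:88103252-88219003) had 42.9, 47.8 and 55.9 CPM in CAST/EiJ females, against 31.2, 39.6 and 43.5 CPM in CAST/EiJ males (0.35 ± 0.08, adjusted p = 5.39e-04). It had 42.8, 55.6 and 68.7 CPM in C57BL/6J females, against 77.6, 91.9 and 101 CPM in C57BL/6J males, with no overlap (-0.70 ± 0.07, adjusted p = 1.47e-09). In NZO/HlLtJ it had 40.7, 44.8 and 48.8 CPM in females and 40.7, 50.8 and 56.8 CPM in males (-0.17 ± 0.07, adjusted p = 0.126), and the sex effect differed among strains (adjusted p = 7.14e-09). Ugt1a6a (chr1:88134809-88218997) was low in NZO/HlLtJ, with 23.5 to 35.9 CPM over both sexes, against 55.7 to 115 CPM in C57BL/6J (-1.52 ± 0.07, adjusted p = 1.43e-22).

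The remaining Ugt1a genes were less even between libraries or low. Ugt1a5 had 59.5, 117 and 178 CPM in NZO/HlLtJ females, against 3.20, 33.4 and 112 CPM in NZO/HlLtJ males, whose highest library was again 44% fat replicate 3. The log2 fold change of Ugt1a5 there was 1.53 ± 0.41 (adjusted p = 0.00665), and 2.18 without that male. In CAST/EiJ, Ugt1a5 was low in both sexes, at 4.09 to 29.3 CPM, which was -3.02 ± 0.32 from C57BL/6J (adjusted p = 1.58e-10), and -3.10 without the C57BL/6J female that stood apart. Ugt1a2 and Ugt1a8 reached at most 3.20 CPM and were lower in females of CAST/EiJ by -1.43 and -2.65.

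Most members differed between strains, where large shares of all genes did too. Of the 34 members, 21 were called for NZO/HlLtJ over C57BL/6J, where 49.1% of all tested genes were called. For CAST/EiJ over C57BL/6J 26 members were called against 67.9% of all genes, and for NZO/HlLtJ over CAST/EiJ 26 against 68.1%. By direction, 14 members were higher and 7 lower in NZO/HlLtJ than in C57BL/6J (25.5% and 23.6% of all genes), 11 higher and 15 lower in CAST/EiJ than in C57BL/6J (32.6% and 35.3%), and 17 higher and 9 lower in NZO/HlLtJ than in CAST/EiJ (35.3% and 32.8%). The sulfotransferases called for NZO/HlLtJ over C57BL/6J were 5 higher and 0 lower, and the glucuronosyltransferases 9 higher and 7 lower. For CAST/EiJ over C57BL/6J they were 4 higher and 6 lower, and 7 higher and 9 lower. The median log2 difference over members was 0.38 for NZO/HlLtJ over C57BL/6J and -0.14 for CAST/EiJ over C57BL/6J, against -0.002 and -0.022 over all tested genes. Without the libraries that hold Cpa1, 21, 25 and 28 members were called in the 3 comparisons.

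Ugt3a2 (chr15:9335550-9370955, forward) had the smallest p between strains. The human enzyme uses UDP-glucose or UDP-xylose in place of the glucuronic acid sugar. It had 338, 352 and 411 CPM in NZO/HlLtJ females and 327, 352 and 384 CPM in NZO/HlLtJ males. It had 19.0, 23.6 and 29.7 CPM in CAST/EiJ females and 24.2, 28.4 and 35.3 CPM in CAST/EiJ males. It had 247, 335 and 381 CPM in C57BL/6J females and 316, 347 and 395 CPM in C57BL/6J males. CAST/EiJ was far below the other strains in both sexes, with no overlap. Ugt3a2 differed by -3.68 ± 0.06 for CAST/EiJ over C57BL/6J (adjusted p = 2.64e-38) and by 0.09 ± 0.05 for NZO/HlLtJ over C57BL/6J (adjusted p = 0.126). Its neighbour Ugt3a1 was 0.48 ± 0.05 higher in CAST/EiJ than in C57BL/6J averaged over the sexes (adjusted p = 3.34e-11). In females alone that difference was 0.83 ± 0.07 (adjusted p = 2.5e-13), and in males it was not called (0.14 ± 0.07, adjusted p = 0.0947). The sources used here do not say whether CAST/EiJ reads were aligned to a CAST/EiJ genome, and the effect of that on strain differences was not tested.

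Sult1e1 (chr5:87575969-87591594, reverse), the estrogen sulfotransferase, was an NZO/HlLtJ gene in these livers. It had 1.47, 4.69 and 8.52 CPM in NZO/HlLtJ females, against 0.194, 0.514 and 5.39 CPM in NZO/HlLtJ males (log2 fold change 2.31 ± 0.38, adjusted p = 2.40e-05). In CAST/EiJ it had 0.0566 to 0.223 CPM in females and 0 to 0.0297 CPM in males, and in C57BL/6J 0 to 0.125 CPM in females and 0 to 0.0961 CPM in males. In CAST/EiJ, females held 35 counts and males 1, a ratio of 31.7 (95% counting interval 5.33 to 1287, adjusted p = 0.00282). All NZO/HlLtJ libraries but the lowest male, which lay inside the CAST/EiJ female range, were above every library of the other strains. NZO/HlLtJ exceeded C57BL/6J by 5.40 ± 0.38 (adjusted p = 8.09e-15) and CAST/EiJ by 6.10 ± 0.46 (adjusted p = 1.58e-14).

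Few members were called for diet, and few of all tested genes were. With 44% over 10% fat, 2 of 34 members were called in NZO/HlLtJ, where 5.64% of all tested genes were, 1 in CAST/EiJ against 0.895%, and 1 in C57BL/6J against 0.991%. Within a sex, 1 member was called in NZO/HlLtJ females (0.486% of all genes) and 1 in NZO/HlLtJ males (2.68%). None was called by edgeR in CAST/EiJ females (0.198%), CAST/EiJ males (0.012%), C57BL/6J females (0.102%) or C57BL/6J males (0.042%). At an unadjusted p under 0.05 these held 5, 8, 2 and 4 of the 34 members in that order, against 8.95%, 7.32%, 9.9% and 8.75% of all genes. Here DESeq2 called 0, 1, 1 and 1, and limma on the authors' variance-stabilized values called 0, 0, 0 and 1. No member was called for a diet effect that differed among strains (0.048% of all genes) or between sexes (0.108%). At an unadjusted p under 0.05 these held 4 and 2 of the 34 members, against 10.6% and 5.61% of all genes, and DESeq2 called 0 and 1, and limma called 0 and 0. Without the C57BL/6J female that stood apart, Ugt3a1 was called in C57BL/6J females (0.56, adjusted p = 0.0015) and males (0.45, adjusted p = 0.0173), Sult2a7 over both C57BL/6J sexes (1.54, adjusted p = 0.0212) and Ugt2a3 for sex by diet (adjusted p = 0.0421).

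Ugt3a1 (chr15:9273319-9315032, forward), whose human form transfers N-acetylglucosamine, was higher on 44% fat. It had 188, 184, 181 and 171 CPM in NZO/HlLtJ females on 44% fat, against 132, 142, 112 and 141 CPM on 10% fat. It had 172, 175, 197 and 176 CPM in NZO/HlLtJ males on 44% fat, against 154, 138, 147 and 151 CPM on 10% fat. The diets did not overlap in either sex of NZO/HlLtJ. C57BL/6J females had 79.1, 107, 127 and 109 CPM on 44% fat, against 67.5, 71.3, 88.9 and 84.1 CPM on 10% fat, and C57BL/6J males had 120, 130, 113 and 125 CPM on 44% fat, against 81.1, 92.0, 84.0 and 97.8 CPM on 10% fat. The C57BL/6J males did not overlap, and in C57BL/6J females the library that stood apart was the low one on 44% fat. For diet, Ugt3a1 had a log2 fold change of 0.37 ± 0.07 in NZO/HlLtJ (adjusted p = 7.9e-04) and 0.45 ± 0.07 in C57BL/6J (adjusted p = 3.8e-04; 0.505 without the library that stood apart). In CAST/EiJ it was 0.22 (adjusted p = 0.144), with 168, 173, 185 and 171 CPM in females on 44% fat against 163, 156, 129 and 148 CPM on 10% fat. The CAST/EiJ females did not overlap by diet either. The lowest CAST/EiJ male on 44% fat had 120.9 CPM, also the median of CAST/EiJ males over both diets. The CAST/EiJ males on 10% fat thus lay at or below those on 44% fat. With C57BL/6J fitted alone, the adjusted p of Ugt3a1 in that strain was 0.1037. Ugt3a1 was also the member called in NZO/HlLtJ females (0.46 ± 0.10, adjusted p = 0.0189), a call lost when replicate 3 of the females on 10% fat was left out (0.39, adjusted p = 0.08561).

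Sult1e1 was higher on 44% fat in NZO/HlLtJ. NZO/HlLtJ males had 0.675, 2.01, 5.39 and 1.37 CPM of it on 44% fat, against 0.332, 0.337, 0.194 and 0.353 CPM on 10% fat. NZO/HlLtJ females had 6.64, 8.52, 2.95 and 6.43 CPM on 44% fat, against 1.64, 1.47, 6.91 and 1.77 CPM on 10% fat. The males did not overlap, and 1 female on 10% fat reached the level of those on 44% fat. Sult1e1 had a log2 fold change for diet of 2.01 ± 0.38 in NZO/HlLtJ (adjusted p = 9.2e-04), 2.96 ± 0.58 in its males (adjusted p = 0.00277) and 1.06 in its females (adjusted p = 0.40). The male value became 2.17 (adjusted p = 0.02726) without NZO/HlLtJ male 44% fat replicate 3, and its adjusted p was 0.05489 with the strain fitted alone.

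Ugt2b35 (chr5:87000860-87013275, forward) was lower on 44% fat in CAST/EiJ. It had 64.9, 36.2, 39.0 and 45.4 CPM in CAST/EiJ females on 44% fat, against 77.5, 48.2, 66.7 and 77.2 CPM on 10% fat. It had 112, 96.0, 101 and 98.7 CPM in CAST/EiJ males on 44% fat, against 135, 145 and 126 CPM on 10% fat. The males did not overlap and the females did. The log2 fold change of -0.47 ± 0.11 (adjusted p = 0.0257) lost its call in 7 of 15 refits that left out 1 library, with adjusted p up to 0.07525, and without the libraries that hold Cpa1 (adjusted p = 0.06642). Over the 3 strains together, the joint test of diet called 4 members, against 7.45% of all tested genes. Sult1b1 was called there (adjusted p = 0.03369) and in no strain alone, with log2 fold changes of 0.47, 0.42 and 0.42 in NZO/HlLtJ, CAST/EiJ and C57BL/6J.

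**Figure D5:**
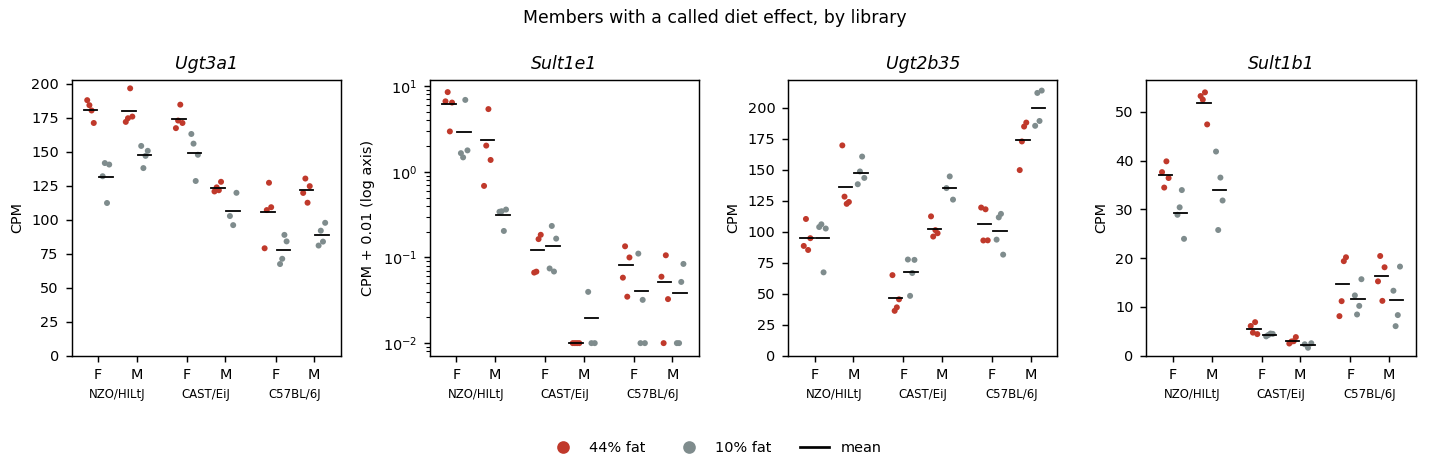
Level of Ugt3a1, Sult1e1, Ugt2b35 and Sult1b1 in every library, in CPM (CPM plus 0.01 on a log axis for Sult1e1), by strain, sex and diet; bars are means. For Ugt3a1 in both sexes of NZO/HlLtJ the points on 44% fat lie above all those on 10% fat, and for Sult1e1 both diets of NZO/HlLtJ lie above nearly all libraries of the other strains.

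The genes around these enzymes were followed in 2 lists. Of 14 genes for the supply of sulfate and sugar cofactors, transport and hydrolysis, 1 was higher and 4 lower in females of NZO/HlLtJ, 3 and 4 in CAST/EiJ, and 1 and 5 in C57BL/6J. Over all tested genes, 9.31% were higher and 7.94% lower in NZO/HlLtJ, 14.2% and 16.1% in CAST/EiJ, and 8.7% and 8.1% in C57BL/6J, so the counts of 1 higher are near the background. Papss2, which makes PAPS, was higher in females of all 3 strains, with log2 fold changes of 1.09, 0.98 and 1.05 in NZO/HlLtJ, CAST/EiJ and C57BL/6J. Arsa, a lysosomal sulfatase, was lower in females by -1.39, -1.42 and -1.57 in the same strains. Ugdh, which makes UDP-glucuronic acid, was lower in females of NZO/HlLtJ (-0.73) and C57BL/6J (-0.93). Of 20 receptors and transcription factors known to regulate these genes or liver sex differences, 6 were higher and 1 lower in females of NZO/HlLtJ, 9 and 2 in CAST/EiJ, and 6 and 1 in C57BL/6J, where the counts of lower genes are under the same shares. Cux2, a female-biased repressor in mouse liver, had medians of 30.0, 64.6 and 56.2 CPM in females of NZO/HlLtJ, CAST/EiJ and C57BL/6J, against 0.380, 0.237 and 0.371 CPM in males. Prlr, the prolactin receptor, was higher in females by 1.45, 2.16 and 2.43. On 44% fat, Ugp2, which makes UDP-glucose, rose by 0.45 in NZO/HlLtJ (adjusted p = 0.0012), as did the sulfate transporter Slc26a1 by 0.29 (adjusted p = 0.0081) and the stress-response factor Nfe2l2 by 0.47 (adjusted p = 0.0368). Impad1, a phosphatase that clears the by-product of sulfation, was lower on 44% fat in CAST/EiJ (-0.31, adjusted p = 0.0395). Within a sex, the liver factor Foxa2 was lower (-1.02, adjusted p = 0.00982) and the coregulator Trim24 higher (0.87, adjusted p = 0.0125) in NZO/HlLtJ males, where Ugp2 was also called (0.45, adjusted p = 0.0414), and Ugdh was higher in C57BL/6J females (0.89, adjusted p = 0.0496).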

How the data were processed

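Polyadenylated liver RNA was sequenced with 100-base paired ends, per the labels' protocols. The deposited gene table holds expected counts, since 20.3% of its values are not whole (tolerance 1e-06). A further deposited table holds variance-stabilized values on a log2-like scale, used in an alternative. The submitters' processing notes name GRCm38 and DESeq2. The aligner, the counter, strand use and the genome used for each strain were not given in the sources used here. Members and lists were chosen with earlier results of these data known.

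Counts were rounded to whole numbers and fitted in edgeR 4.0.16 (R 4.3.3) with 12 group means over 47 libraries. Genes were kept by filterByExpr (minimum count 10), libraries were scaled by TMM, and the robust quasi-likelihood fit had 35 residual degrees of freedom. P-values were adjusted by Benjamini-Hochberg over 16650 genes, and SE is the log2 fold change divided by the square root of F. Every gene of the table is above 0 in at least 24 of the 47 libraries, so genes silent in most libraries are not seen. Levels are CPM on TMM effective library sizes. Against a group at 0, folds use a floor of 3 counts over the group, and counting intervals are exact 95% intervals. The code was tested on simulated data. Replicates of a group were distinct libraries (lowest chi-square per gene 23.11).

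Members given by library were those with the smallest p in the joint tests of sex, strain and diet (up to 6 each) and of their interactions (up to 4 each), with Sult3a1, Sult1e1, Sult2a1, Sult1a1, Ugt1a1 and Ugt2b1. Alternatives were DESeq2 1.42.0, limma 3.58.1, other filters and scaling, the identifier run, each strain alone, single libraries left out and the libraries with Cpa1 left out. Exon lengths and shared windows came from GENCODE gene models on GRCm38, and promoters from RefSeq.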

Additional observations from a re-analysis of the deposited data

Results flagged for a closer look

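Single libraries lay far from the other 3 of their group for several members. There were 16 such cases over 198 pairings of 18 members with groups of 4, where groups of equal values could not be flagged. The rule flags about 1 in 20 among independent, normally distributed values. These values are not such, since 5 cases come from 1 library and some are 2 or 3 counts against 0. No comparison with chance is drawn. In NZO/HlLtJ females on 10% fat, replicate 3 stood out for 5 members. It had 111.0 CPM of Sult1d1 where the others had 81.41 to 85.23, and 6.905 CPM of Sult1e1 where the others had 1.465 to 1.77. It had 67.17 CPM of Ugt2b35 (others 102.5 to 105.9), 26.35 CPM of Ugt2b38 (others 43.15 to 45.47) and 270.3 CPM of Ugt2b5 (others 328.2 to 339.6). In the same group replicate 1 had 7.334 CPM of Sult5a1 (others 9.342 to 9.374).

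In NZO/HlLtJ males on 44% fat, replicate 3 had 8.0 CPM of Sult3a1 (others 0 to 0.3022) and 196.8 CPM of Ugt3a1 (others 172.1 to 176.0), and replicate 1 had 169.5 CPM of Ugt2b35 (others 122.4 to 128.2). In NZO/HlLtJ males on 10% fat, replicate 3 had 0.194 CPM of Sult1e1 (others 0.3318 to 0.3527) and replicate 1 had 0.04741 CPM of Sult2a1, which is 2 counts, where the others had 0. C57BL/6J male 44% fat replicate 1 had 0.04965 CPM of Sult2a1, also 2 counts against 0. C57BL/6J male 10% fat replicate 4 had 0.07406 CPM of Sult3a1, which is 3 counts against 0, and replicate 3 had 114.5 CPM of Ugt1a6a (others 90.53 to 93.77). Sult1d1 was high in C57BL/6J female 44% fat replicate 3, at 168.5 CPM (others 98.47 to 103.7), and in CAST/EiJ male 44% fat replicate 4, at 21.58 CPM (others 9.023 to 9.953).

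The sex effect differed among the 3 strains for 22 members by edgeR's joint quasi-likelihood test. The adjusted p was 6.291e-12 for Sult1d1, 1.597e-10 for Ugt2b5, 2.648e-10 for Sult5a1, 7.138e-09 for Ugt1a6b, 6.901e-08 for Sult3a1 and 6.683e-07 for Ugt1a10. It was 4.682e-06 for Ugt3a1, 3.952e-05 for Ugt2b38, 4.418e-05 for Ugt2b37, 5.7e-05 for Ugt2b34, 0.0002496 for Ugt1a1, 0.0003818 for Ugt2b36 and 0.000397 for Sult1a1. It was 0.000795 for Ugt2a3, 0.001066 for Ugt1a8, 0.001086 for Ugt1a9, 0.001596 for Ugt1a6a and 0.002013 for Sult1b1. It was 0.0131 for Ugt1a2, 0.02298 for Ugt2b1, 0.02882 for Ugt1a7c and 0.04206 for Ugt3a2.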

How the results depend on the processing

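Of the called results, 63 of 71 for sex, 69 of 73 for strain, 19 of 22 for sex by strain and 2 of 6 for diet kept their call in every alternative run that tested them. A run whose filter dropped a low member is not counted for that member. The number of members called moved as follows. DESeq2 called 1 in C57BL/6J females, C57BL/6J males, CAST/EiJ males and sex by diet, where edgeR called 0, and limma called 1 in C57BL/6J males. With each strain fitted alone, diet calls were 0 in C57BL/6J, 0 in CAST/EiJ, 1 in CAST/EiJ males, 2 in NZO/HlLtJ females and 4 in NZO/HlLtJ. Without the libraries that hold Cpa1 they were 1 in C57BL/6J females, 1 in CAST/EiJ males, 2 in NZO/HlLtJ females, 2 in NZO/HlLtJ males and 4 in NZO/HlLtJ. The cause of these moves was not tested. Over all genes, diet by strain called 8 with edgeR and 133 with DESeq2, and the diet effect 17 and 126 in C57BL/6J females and 7 and 77 in C57BL/6J males. Leaving out 1 library gave 20 to 23 members for sex by strain, 20 to 21, 27 to 28 and 21 to 23 for sex in NZO/HlLtJ, CAST/EiJ and C57BL/6J, and 21 to 23, 25 to 29 and 25 to 27 for NZO/HlLtJ over C57BL/6J, CAST/EiJ over C57BL/6J and NZO/HlLtJ over CAST/EiJ. For diet it gave 2 to 2 in NZO/HlLtJ, 0 to 2 in CAST/EiJ and 1 to 2 in C57BL/6J, 0 to 1 in NZO/HlLtJ females and 1 to 1 in NZO/HlLtJ males. It gave 0 to 1 in CAST/EiJ females, 0 to 0 in CAST/EiJ males, 0 to 1 in C57BL/6J females, 0 to 2 in C57BL/6J males, 0 to 0 for diet by strain and 0 to 1 for sex by diet. Within a single run of identifiers, 3 called values changed sign: Sult2a7 for sex in C57BL/6J (-0.575, run 1), Ugt1a6a for CAST/EiJ over C57BL/6J (0.07, run 1) and Ugt1a9 for sex in C57BL/6J (-0.061, run 2). Strain differences among females, the strain difference of the Sult3a1 sex effect and the lower bounds were recomputed without single libraries after the data were seen, and none of those given lost its call or direction. No paired analysis was possible because the labels give no replicate numbers, and those used here follow accession order.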

Other observations

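Summed over family members, the Ugt2 genes had medians of 1826 CPM in NZO/HlLtJ females and 2433 CPM in NZO/HlLtJ males, 2000 and 3905 CPM in CAST/EiJ females and males, and 1848 and 2744 CPM in C57BL/6J females and males. The Sult genes summed to 1318 CPM in NZO/HlLtJ females and 868.7 CPM in NZO/HlLtJ males, 3326 and 2583 CPM in CAST/EiJ females and males, and 902.6 and 914.2 CPM in C57BL/6J females and males. These sums count reads, are led by a few members such as Sult3a1 and Ugt2b1, and were not tested.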
